A study of Homo sapiens with 6 samples.

Results

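The 45 genes described here encode the machinery of mitosis, from entry into mitosis to the separation of the daughter cells. They comprise CDK1, its cyclins and regulators (CDK1, CCNB1, CCNB2, CCNA2, CDC25C and FOXM1), mitotic kinases (PLK1, AURKA and NEK2), spindle checkpoint kinases (BUB1, BUB1B and TTK), the chromosomal passenger complex (AURKB, INCENP and BIRC5) and kinesin motors (KIF11, KIF23, KIF20A, KIF2C, KIF14, KIF18A and KIF4A). They further comprise centromere and kinetochore proteins (CENPA, CENPE, CENPF, NDC80, NUF2 and SPC25), spindle proteins (TPX2, PRC1, HMMR, DLGAP5 and ASPM), the cytokinesis proteins ANLN and ECT2, and chromosome proteins (SMC2, SMC4, NCAPG, NCAPH, TOP2A and MKI67). The last group holds CDC20 and UBE2C, which work with the anaphase-promoting complex (APC/C), the separase ESPL1 and its inhibitor PTTG1. The genes were picked by symbol, without a threshold on their values, and all 45 were among the 17448 genes listed and among the 12951 that passed a filter on low counts and were tested.

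RNA-seq was performed on HCC2814, a human lung squamous cell carcinoma (LUSC) line, to find genes that change when the mTORC2 subunit MLST8 is lost. The 3 WT libraries came from cells with non-targeting guide RNA (sgCtrl) and the 3 MLST8-KO libraries from cells with guide RNA against MLST8, an adaptor protein that mTORC1 and mTORC2 share. Whether the replicates of a group carried the same guide is not given in the sources used here. For western blots of this line the paper numbers 3 sgControl and 3 sgMLST8 samples. Whether these match the RNA-seq replicates is not stated, so differences between guides cannot be told apart from differences between replicates. Both groups were given guide RNA for 48 to 72 hours, went through antibiotic selection and grew in DMEM with serum. For the human lines the methods describe lentiviral guide delivery (lentiCRISPR v2) and drug selection without a cloning step, so each library is treated here as a selected population, and the replicates of a group are independent experiments by the design text.

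In a dividing cell, cyclin B bound to CDK1 starts mitosis, PLK1 and the Aurora kinases build the spindle, and kinesins move microtubules and chromosomes along it. The spindle checkpoint holds CDC20 and the APC/C back until every kinetochore is attached, after which securin (PTTG1) is destroyed, separase (ESPL1) cuts cohesin, and the cell divides. Most of these genes are transcribed in a shared wave late in the cycle under B-MYB, the MuvB proteins and FOXM1, so their messenger RNA is scarce in cells that do not cycle. In bulk libraries such as these, a larger share of cells that cycle or are late in the cycle cannot be told apart from more transcript per cell.

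Promoters of mitotic genes are known for a short cell cycle homology region, TTTGAA or TTTAAA, near the start and for CCAAT boxes upstream of it. These letters were searched on both strands of RefSeq promoter windows of 300 bases (250 before and 50 from the transcription start, GRCh38.p14), which were given for 39 of the 45 genes. TTTGAA or TTTAAA (the latter is the same on both strands) stood in a window of 35 of the 39 genes (89.7%), against 21.3% of the 10561 tested genes with a window and 27.9% of all 27305 genes with a window. CCAAT stood in 30 (76.9%), against 43.2% of the tested genes and 39.7% of all genes with a window. Both stood together in a window of 26 (66.7%), against 8.95% of the tested genes and 11.2% of all genes with a window. The searched letters can share bases, as where the last T of CCAAT begins TTTGAA or TTTAAA, or where CCAAT meets its reverse complement ATTGG. Matches were counted without a check for such sharing. A match is a description of letters and was not tested as a site.

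The promoter stretches of 5 genes are printed to show this arrangement, 3 for the genes with the largest differences described below and 2 for CCNB1 and PTTG1. CCNB1 was picked by name and was called higher, and PTTG1 had the smallest difference. Each runs from 150 bases before the start to 30 bases from it, 5′ to 3′ on the plus strand, with the searched letters of either strand in capitals. They cover chr5:138178962-138179141 (KIF20A), chr16:23678739-23678918 (PLK1), chr15:40160919-40161098 (BUB1B), chr5:69167000-69167179 (CCNB1) and chr5:160421705-160421884 (PTTG1, the first of its 2 windows).
KIF20A: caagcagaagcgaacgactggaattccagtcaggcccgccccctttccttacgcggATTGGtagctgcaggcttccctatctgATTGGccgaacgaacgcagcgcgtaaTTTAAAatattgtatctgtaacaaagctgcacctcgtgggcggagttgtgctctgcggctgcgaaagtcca
PLK1: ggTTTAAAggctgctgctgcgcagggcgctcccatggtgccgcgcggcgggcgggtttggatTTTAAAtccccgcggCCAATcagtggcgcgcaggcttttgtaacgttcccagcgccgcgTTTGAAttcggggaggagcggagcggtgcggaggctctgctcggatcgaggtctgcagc
BUB1B: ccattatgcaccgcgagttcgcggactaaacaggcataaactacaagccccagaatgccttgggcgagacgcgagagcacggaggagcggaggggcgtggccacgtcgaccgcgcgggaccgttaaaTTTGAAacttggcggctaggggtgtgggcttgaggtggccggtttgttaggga
CCNB1: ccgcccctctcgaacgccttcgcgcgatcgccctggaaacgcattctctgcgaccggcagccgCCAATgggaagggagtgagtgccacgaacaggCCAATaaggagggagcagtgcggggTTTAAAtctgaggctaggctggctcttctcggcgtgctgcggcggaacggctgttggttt
PTTG1: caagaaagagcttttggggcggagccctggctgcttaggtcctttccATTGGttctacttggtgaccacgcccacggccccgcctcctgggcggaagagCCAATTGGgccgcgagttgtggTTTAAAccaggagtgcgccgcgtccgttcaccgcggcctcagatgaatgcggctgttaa
KIF20A has TTTAAA beginning 41 bases before its start, with CCAAT boxes on the minus strand 94 and 67 bases before it. PLK1 has 3 matches, the nearest a TTTGAA at 29 bases, with a CCAAT box at 73. BUB1B has TTTGAA at 23 bases and no CCAAT in this stretch. CCNB1 and PTTG1 carry TTTAAA at 30 and 29 bases with CCAAT boxes upstream, so that CCNB1, which was called higher, and PTTG1, which was not called, have the same letters as KIF20A and PLK1.

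MLST8 was lower in every MLST8-KO library. It stood at 58, 56.9 and 60.7 CPM (counts scaled to library size by TMM, the edgeR normalization for library composition) in WT and 25.5, 38.9 and 25.7 CPM in MLST8-KO cells, giving each group's libraries here and below in the order of replicates 1, 2 and 3. The difference was -0.96 ± 0.15 (adjusted p = 0.00339) on the log2 scale, where ± gives the standard error throughout. Estimated counts summed to between 14381673 and 15744154 per library. The 10 epithelial and squamous markers checked were all detected, at 1.40% to 2.09% of counts in WT and 2.47% to 2.77% in MLST8-KO libraries, whereas the endothelial, fibroblast, immune and lung adenocarcinoma markers listed were at 36 estimated counts or fewer in every library, except COL1A1, CD68 and NKX2-1. Transcripts of 11 liver genes made up 0.0292% of counts in MLST8-KO replicate 1 and at most 0.000751% in any other library, and results are therefore also given without that library. WT replicates 1 and 3 differed more from each other (chi-square per gene 26.2) than any other pair of a group (6.77 to 10.1).

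Of the 45 mitosis genes, 36 were higher in MLST8-KO than in WT cells, 0 were lower and 9 did not pass the test (edgeR's quasi-likelihood test, Benjamini-Hochberg adjusted p under 0.05 over all 12951 genes). Over all genes tested, 16.3% were called higher and 15.7% lower. The median log2 fold change was 0.49 over the mitosis genes and 0.0045 over all genes tested. A difference of 1.5-fold or more was seen in 16 genes and of 2-fold or more in 1, the kinesin KIF20A. Ranked by log2 fold change among all genes tested, CCNA2 (0.59), the smallest of the 16, stood at percentile 90.3. KIF20A (1.04) stood at percentile 97.4. The share of all genes tested that differed by 1.5-fold or more in either direction is not given here. In 41 of the 45 genes every MLST8-KO library was above every WT library, a pattern seen in 24.8% of all genes tested. The groups overlapped in CDC25C, KIF14, NDC80 and PTTG1. PTTG1 was the only gene with a fitted difference below 0. The direction was the same in each of the 14 alternative analyses, with 0 genes lower, whereas the number called higher was 21 without MLST8-KO replicate 2 (where 8.69% of all genes were called higher and 8.35% lower) and between 26 and 40 in the others. By edgeR at an unadjusted p under 0.05, 40 of the 45 were higher and 0 lower, beside 2949 higher and 2866 lower of all 12951 genes. By DESeq2, 35 of the 45 were higher and 0 lower (13.9% and 15.1% of the 13355 genes it tested), and by limma on log2(TPM + 1) 40 and 0. Higher calls made up 51.0% of the calls over all genes, 62.0% under upper quartile scaling (19.7% of all genes called higher) and 71.0% by limma on log2(TPM + 1) (21.5% higher, 8.76% lower), with much the same by limma on log2(TPM + 0.1) (21.3% and 8.74%). Relative to the median of all genes in the same analysis, the mitosis genes stood at 0.48, 0.48 and 0.49. Of the 36 genes, 21 kept their call in all 6 reduced fits, in which 1 library was left out. The share of all called genes that did so is not given here, so this count has no background. In those fits 7.41% (without WT replicate 2) to 20.5% (without WT replicate 1) of all genes were called higher. By promoter, 21 of the 26 genes with both sets of letters were higher, as were 12 of the 13 with a window but not both and 3 of the 6 without a window.

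**Figure D1:**
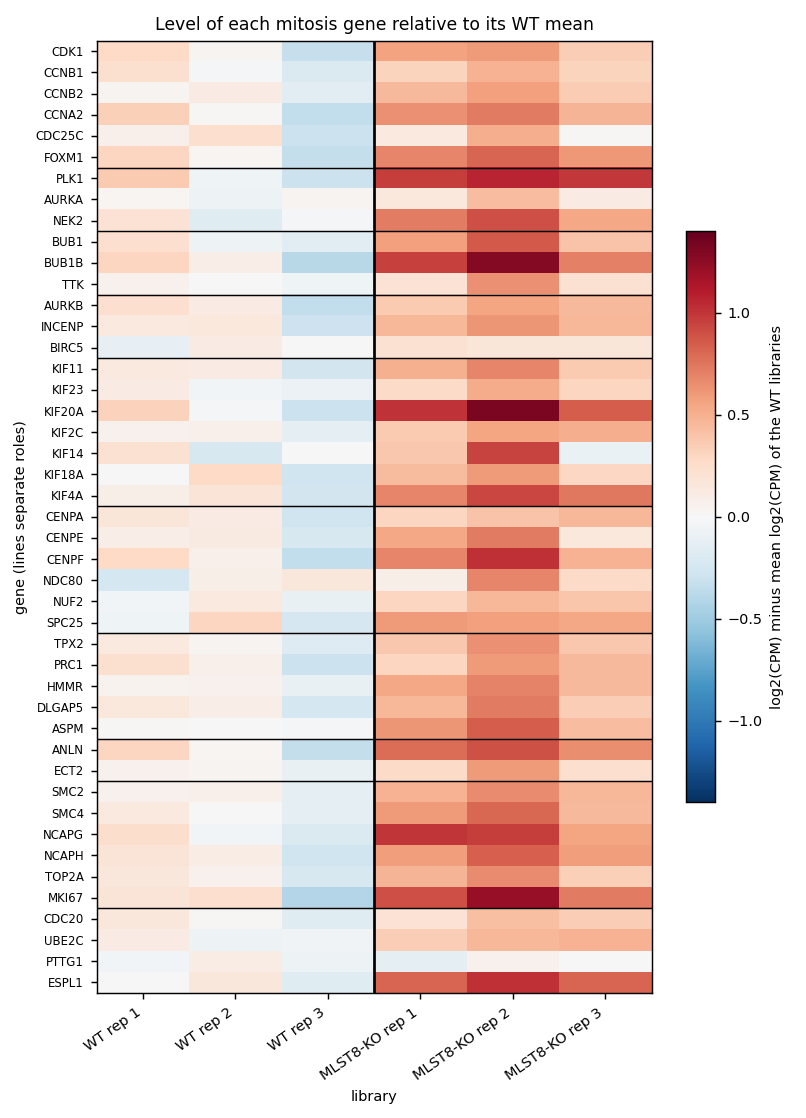
Colours show log2(CPM) minus the mean of the 3 WT libraries for each of the 45 genes (rows, ordered by role, with lines between roles) in each of the 6 libraries (columns, WT left of the thick line). The MLST8-KO columns are red for nearly every gene, replicate 2 most of all, and WT replicate 3 is the palest or bluest WT column in most rows. PTTG1 stays near 0 throughout.

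Among the genes of mitotic entry, 5 of 6 were higher (median log2 fold change 0.47). CDK1, the kinase that drives mitosis (chr10:60778331-60794852, GENCODE 29 on GRCh38), stood at 31.2, 26.3 and 20.5 CPM in WT and 37.9, 38.6 and 32.5 CPM in MLST8-KO libraries. It differed by 0.48 ± 0.14 (adjusted p = 0.0282), and although the groups did not overlap, WT replicate 1 and MLST8-KO replicate 3 were close to each other. CCNB1, the cyclin B subunit that activates CDK1 (chr5:69167010-69178245), was at 95.2, 80.1 and 70.7 CPM in WT and 101, 114 and 101 CPM in MLST8-KO libraries. Its difference was 0.36 ± 0.11 (adjusted p = 0.0331), without overlap. CDK1 was no longer called in 3 of the 6 reduced fits (without WT replicate 2, MLST8-KO replicate 1 or MLST8-KO replicate 2), and CCNB1 in every reduced fit except that without WT replicate 1. FOXM1, a transcription factor of the mitotic wave (chr12:2857681-2877155), was at 82.3, 68.1 and 52.7 CPM in WT and 107, 117 and 101 CPM in MLST8-KO libraries. All MLST8-KO libraries exceeded WT replicate 1, the highest WT library, and FOXM1 differed by 0.68 ± 0.14 (adjusted p = 0.00745) and kept its call in all 6 reduced fits. CDC25C, a phosphatase that activates CDK1, was at 5.97, 6.68 and 4.62 CPM in WT and 6.26, 8.09 and 5.76 CPM in MLST8-KO libraries, which overlapped, and it did not pass the test (log2 difference 0.22 ± 0.19, adjusted p = 0.404). The remaining cyclins CCNA2 and CCNB2 were higher by 0.59 and 0.46 on the log2 scale (adjusted p = 0.0154 and 0.00854), and CCNA2 lost its call in the same 3 reduced fits as CDK1.

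The mitotic kinases and the checkpoint kinases each had 2 of 3 genes higher (medians 0.72 and 0.61). PLK1, a kinase needed for centrosome maturation and spindle assembly (chr16:23677656-23690367), was at 39.9, 29.8 and 25.2 CPM in WT and 60.7, 65.3 and 61.6 CPM in MLST8-KO libraries. The MLST8-KO libraries were tightly grouped and all above WT replicate 1, and PLK1 differed by 0.98 ± 0.14 (adjusted p = 0.00296), or 1.97-fold. AURKA, a kinase of the spindle poles, was at 43.4, 40.6 and 43.6 CPM in WT and 47.2, 57.2 and 46.1 CPM in MLST8-KO libraries. Its groups did not overlap, but it did not pass the test (0.24 ± 0.10, adjusted p = 0.0905). NEK2, a centrosome kinase, was higher by 0.72 (adjusted p = 0.00612). Of the checkpoint kinases, BUB1B, which encodes BUBR1, a part of the complex that blocks CDC20 (chr15:40161023-40221136), stood at 17.3, 15 and 10.8 CPM in WT and 27.4, 34.3 and 23 CPM in MLST8-KO libraries. The lowest MLST8-KO library was above the highest WT library, a difference of 0.97 ± 0.19 (adjusted p = 0.00571). TTK, the MPS1 kinase that starts checkpoint signalling, was at 20.5, 19.6 and 18.8 CPM in WT and 22.5, 30.6 and 22.7 CPM in MLST8-KO libraries. MLST8-KO replicate 2 stood apart from the other libraries, and TTK missed the threshold (0.36 ± 0.13, adjusted p = 0.0572), passing it only without WT replicate 1 among the reduced fits. BUB1, a checkpoint kinase at the kinetochore, was higher by 0.61 (adjusted p = 0.0105).

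In the chromosomal passenger complex, 2 of 3 genes were higher (median 0.44). INCENP, the scaffold of the complex, was at 24.7, 24.8 and 18.4 CPM in WT and 30.9, 34.5 and 30.9 CPM in MLST8-KO libraries. The groups did not overlap (log2 difference 0.50 ± 0.13, adjusted p = 0.0147), and the call was lost without MLST8-KO replicate 2. BIRC5, which encodes survivin, the subunit that brings the complex to centromeres, was at 42, 49.2 and 45.1 CPM in WT and 52.4, 50.8 and 50.8 CPM in MLST8-KO libraries. The gap between the highest WT and the lowest MLST8-KO library was small, and BIRC5 did not pass the test (0.18 ± 0.09, adjusted p = 0.132). AURKB, the kinase of the complex, was higher by 0.44 (adjusted p = 0.0375), a call kept in 1 of the 6 reduced fits.

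Of the 7 kinesins, 5 were higher (median 0.47), and the largest difference of all 45 genes was in this group. KIF20A, a motor of the central spindle that carries the passenger complex to the midzone (chr5:138178719-138187715), stood at 14.5, 11.3 and 9.38 CPM in WT and 23.2, 28.7 and 20.7 CPM in MLST8-KO libraries. MLST8-KO replicate 3, the lowest of its group, was above WT replicate 1, the highest of its own, and KIF20A differed by 1.04 ± 0.17 (adjusted p = 0.0038), or 2.06-fold. KIF23, the motor of centralspindlin, was at 29.3, 26.2 and 25.5 CPM in WT and 32.5, 38.6 and 33.1 CPM in MLST8-KO libraries. It was higher by 0.36 ± 0.10 (adjusted p = 0.0244), without overlap, and was not called in 3 of the 6 reduced fits (without WT replicate 2, MLST8-KO replicate 1 or MLST8-KO replicate 2). KIF14, a kinesin of the midbody, was at 17.4, 12.9 and 15.1 CPM in WT and 19.5, 28.9 and 14 CPM in MLST8-KO libraries. MLST8-KO replicate 2 was far above and replicate 3 fell within the WT range, so KIF14 had the largest standard error of the 45 and did not pass the test (0.46 ± 0.23, adjusted p = 0.141), except without MLST8-KO replicate 3 (0.68, adjusted p = 0.0395). KIF18A, which dampens chromosome movement at the metaphase plate, was at 11.5, 14.1 and 9.6 CPM in WT and 15.8, 17.6 and 14.2 CPM in MLST8-KO libraries. Its highest WT and lowest MLST8-KO values were nearly the same, and it missed the threshold (0.43 ± 0.16, adjusted p = 0.0565). The other 3, the spindle motor KIF11, the microtubule depolymerase KIF2C and the chromosome-bound KIF4A, were higher by 0.51, 0.47 and 0.77 (adjusted p = 0.0146, 0.0057 and 0.00391), and KIF11 lost its call without MLST8-KO replicate 2.

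**Figure D2:**
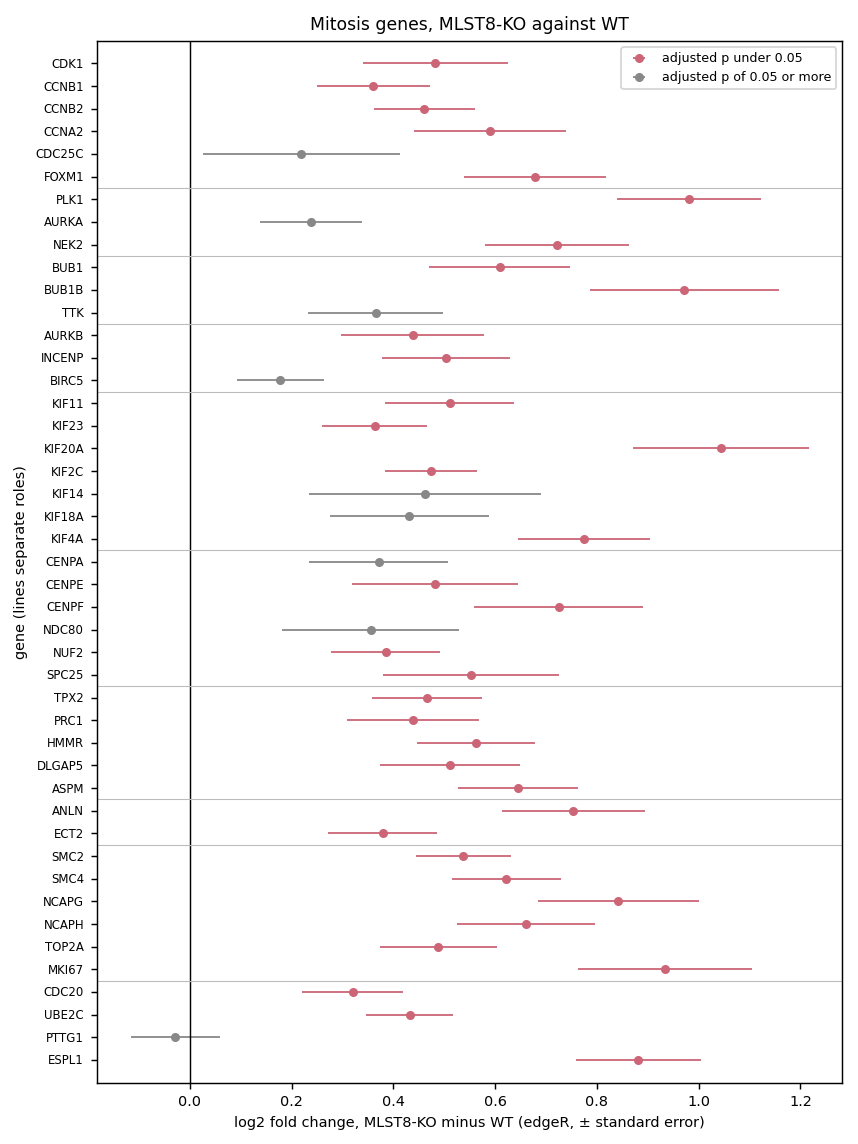
Points give the log2 fold change of each of the 45 genes (MLST8-KO minus WT, edgeR) and bars its standard error, in red where the adjusted p was under 0.05 and in grey otherwise. KIF20A (1.04), PLK1 (0.98), BUB1B (0.97) and MKI67 (0.93) lie farthest right, and PTTG1 (-0.03) lies on the zero line.

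At the centromere and kinetochore, 4 of 6 genes were higher (median 0.43). CENPF, a large kinetochore protein that accumulates late in the cycle (chr1:214603195-214664588), was at 49.9, 43.2 and 32.6 CPM in WT and 66.2, 84 and 57.8 CPM in MLST8-KO libraries. It varied within both groups yet did not overlap between them (log2 difference 0.72 ± 0.17, adjusted p = 0.0106). CENPA, the histone variant that marks centromeres, was at 15.1, 14.6 and 11 CPM in WT and 16.5, 17.7 and 18.5 CPM in MLST8-KO libraries. The groups did not overlap, but CENPA missed the threshold (0.37 ± 0.14, adjusted p = 0.0591). NDC80, the microtubule-binding subunit of the outer kinetochore, was at 9.95, 12.5 and 13.2 CPM in WT and 12.5, 18.9 and 14.2 CPM in MLST8-KO libraries. Its groups overlapped, with WT replicate 1 the lowest rather than replicate 3, and it did not pass the test (0.36 ± 0.17, adjusted p = 0.139). Its partners NUF2 and SPC25 were higher by 0.38 and 0.55 (adjusted p = 0.0228 and 0.0341), and the kinetochore motor CENPE by 0.48 (adjusted p = 0.0449). These 3 calls were each kept in 2 of the 6 reduced fits, SPC25 was not called by DESeq2 (adjusted p = 0.0692), and CENPE was not called by limma on log2(TPM + 1) (adjusted p = 0.0555).

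The 5 spindle genes and both cytokinesis genes were higher, with medians of 0.51 and 0.57. PRC1, which bundles antiparallel microtubules at the midzone, was at 113, 102 and 78.4 CPM in WT and 119, 146 and 132 CPM in MLST8-KO libraries. MLST8-KO replicate 1 was only just above WT replicate 1, and PRC1 was the smallest difference of the spindle group (0.44 ± 0.13, adjusted p = 0.0284). ASPM, a protein of the spindle poles, was at 20.9, 20.7 and 20.2 CPM in WT and 31.7, 37.2 and 27.7 CPM in MLST8-KO libraries. The WT libraries were almost equal, and ASPM was higher by 0.64 ± 0.12 (adjusted p = 0.00504). TPX2, HMMR and DLGAP5, which organize spindle microtubules, were higher by 0.47, 0.56 and 0.51 (adjusted p = 0.011, 0.00749 and 0.0197). ANLN, an actin-binding protein of the cleavage furrow (chr7:36389806-36453791), was at 71.6, 59.3 and 46.2 CPM in WT and 99.8, 108 and 91 CPM in MLST8-KO libraries. The groups did not overlap, and ANLN differed by 0.75 ± 0.14 (adjusted p = 0.00537). ECT2, the exchange factor that activates RhoA at the furrow, was at 90.3, 88.8 and 80.5 CPM in WT and 104, 131 and 102 CPM in MLST8-KO libraries. It was higher by 0.38 ± 0.11 (adjusted p = 0.0233), without overlap. PRC1 lost its call without WT replicate 2, MLST8-KO replicate 2 or MLST8-KO replicate 3, DLGAP5 without WT replicate 2, MLST8-KO replicate 1 or MLST8-KO replicate 2, and ECT2 without WT replicate 2 or MLST8-KO replicate 2.

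All 6 chromosome genes were higher, with the highest median after the mitotic kinases (0.64). MKI67, the chromosome surface protein used as a proliferation marker (chr10:128096659-128126385), was at 49.9, 52 and 33.2 CPM in WT and 82.3, 103 and 73 CPM in MLST8-KO libraries. WT replicate 3 was well below the other WT libraries, and every MLST8-KO library exceeded all of them (log2 difference 0.93 ± 0.17, adjusted p = 0.00504). In culture, by contrast, the paper reports modestly lower viability of HCC2814 cells without MLST8. The libraries hold no measure of growth, and how RNA levels relate to growth was not tested. TOP2A, the topoisomerase that untangles sister chromosomes (chr17:40388516-40417950), was at 201, 188 and 154 CPM in WT and 249.7, 284 and 226 CPM in MLST8-KO libraries. It was higher by 0.49 ± 0.12 (adjusted p = 0.012), without overlap, and lost its call without MLST8-KO replicate 2. The condensin subunits SMC2, SMC4, NCAPG and NCAPH, which compact mitotic chromosomes, were higher by 0.54, 0.62, 0.84 and 0.66 (adjusted p = 0.00432, 0.00412, 0.00556 and 0.00724), and each kept its call in all 6 reduced fits.

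Of the 4 genes of the APC/C and sister separation, 3 were higher (median 0.38). ESPL1, the separase that cuts cohesin (chr12:53268299-53293643), was at 11.9, 13.3 and 10.6 CPM in WT and 20.9, 24.2 and 21 CPM in MLST8-KO libraries. All MLST8-KO libraries were far above all WT libraries (log2 difference 0.88 ± 0.12, adjusted p = 0.00281, 1.84-fold). PTTG1, securin, which binds and inhibits separase until anaphase (chr5:160421822-160428744), was at 58.4, 64.2 and 57 CPM in WT and 54.2, 62.2 and 59.5 CPM in MLST8-KO libraries. The groups overlapped throughout, and the difference was -0.03 ± 0.09 (adjusted p = 0.816), with a sign that turned positive under upper quartile scaling (0.025) and on the TPM scale (0.065). The APC/C activator CDC20 and the APC/C ubiquitin-conjugating enzyme UBE2C were higher by 0.32 and 0.43 (adjusted p = 0.0338 and 0.00648). The call of CDC20 was kept in 1 of the 6 reduced fits, and that of UBE2C in all 6. Over the whole set of mitosis genes the lowest and highest fitted differences were those of PTTG1 and KIF20A.

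**Figure D3:**
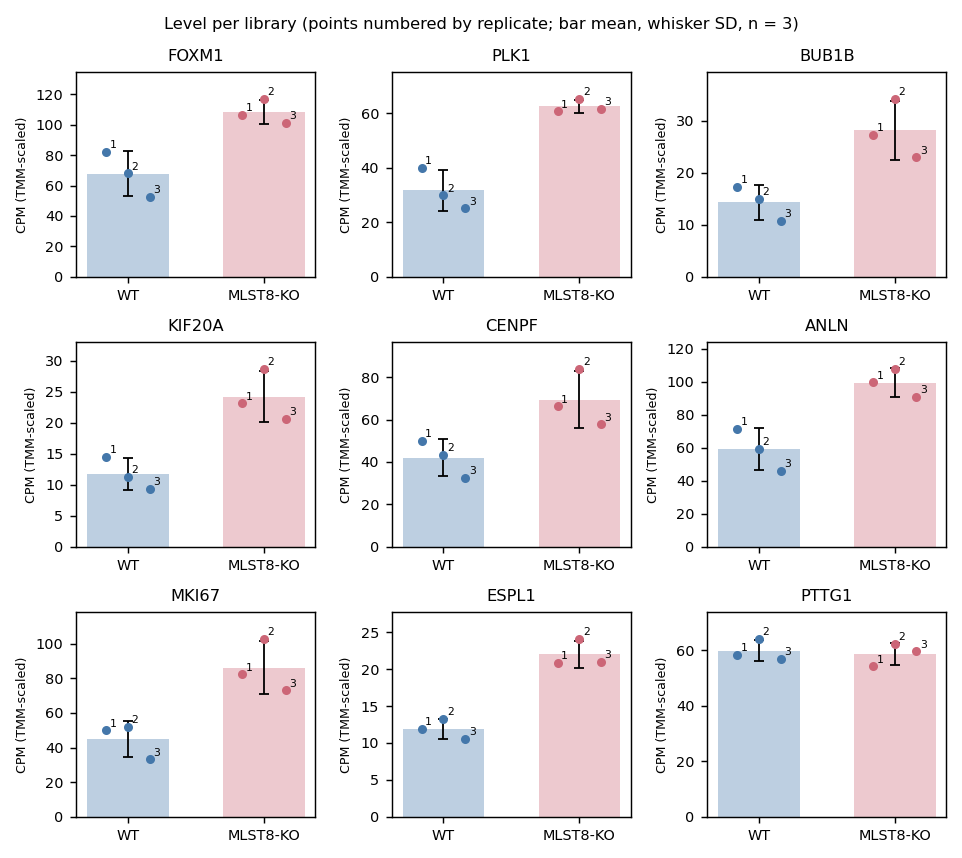
TMM-scaled CPM of 9 of the genes in each library, with points numbered by replicate, bars at the mean of each group and whiskers of 1 SD (n = 3). In the first 8 panels every MLST8-KO point lies above every WT point, and WT replicate 3 is the lowest point in each of them, whereas the PTTG1 points of both groups share a range of 54.2 to 64.2 CPM.

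On the deposited TPM scale, which divides by transcript length so that genes can be set side by side, the 45 genes spanned a wide range of levels. In WT cells UBE2C (205 ± 16.9 TPM, SD, n = 3), PTTG1 (173 ± 12.5) and CDC20 (121 ± 15.7) had the highest levels, and ASPM (3.64 ± 0.174), ESPL1 (3.31 ± 0.395) and CENPE (2.76 ± 0.41) the lowest. UBE2C and PTTG1 lay more than their SDs apart, whereas ASPM and ESPL1 did not. CDK1 and PLK1 had the same mean level in WT cells (26.6 ± 6.02 and 26.6 ± 6.72 TPM), and in MLST8-KO cells PLK1 stood at 56.6 ± 3.56 and CDK1 at 39.96 ± 4.62 TPM. Separase was listed at 3.31 ± 0.395 TPM in WT and 6.69 ± 0.675 TPM in MLST8-KO cells, and its inhibitor securin at 173 ± 12.5 TPM in WT and 181 ± 16.5 TPM in MLST8-KO cells. Added up, the 45 genes made 1512, 1414 and 1202 TPM in the WT libraries and 1881, 2205 and 1851 TPM in the MLST8-KO libraries. TPM of the groups is set side by side with a limit, as the median of all genes tested was also higher in MLST8-KO libraries. As log2(TPM) minus the WT mean, it was 0.018, 0.020 and -0.034 in WT and 0.115, 0.150 and 0.064 in MLST8-KO libraries.

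The WT replicates were not alike in these genes. WT replicate 3 was the lowest WT library in 39 of the 45 genes, against 39.2% of all genes tested, and WT replicate 1 the highest in 28, against 38.3%. Replicate 1 was above 2 and 2 above 3 in 25 genes (27.3% of all genes), and the reverse held in 1, NDC80 (27.5% of all genes). The median of the 45 genes, as log2(CPM) minus the mean of the WT libraries, was 0.14, 0.066 and -0.20 for the WT and 0.48, 0.66 and 0.45 for the MLST8-KO libraries, while that of all genes tested lay between 0.000212 and 0.0108 in every library. The lowest MLST8-KO median was above the highest WT median. Within a gene, the WT libraries spanned a median of 0.40 on the log2 scale for the 45 genes (a ratio of 1.32) and 0.28 for all genes tested, and the MLST8-KO libraries 0.26 and 0.22. The largest ratios of WT replicate 1 to 3 were those of BUB1B (1.61) and CCNA2 (1.60). Of the MLST8-KO libraries, replicate 2 had the top value in 40 of the 45 genes (36.5% of all genes) and replicate 3 the lowest in 29 (36.2%). Replicate 2 was also the MLST8-KO library with the most MLST8 (38.9 CPM, against 25.5 and 25.7 CPM in replicates 1 and 3). So within this group the library with the weakest loss of MLST8 had the highest mitosis genes. A relation between the levels was not tested. WT replicate 3 was also the lowest under DESeq2 size factors (39 genes), upper quartile scaling (40) and TPM (39). The share over all genes was counted under TMM only. In WT replicate 3 the median of all genes was itself the lowest of WT under upper quartile scaling (-0.019) and TPM (-0.034). The median of the 45 genes there was -0.22 and -0.24. Under DESeq2 size factors these medians were 0.0050 and -0.20.

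**Figure D4:**
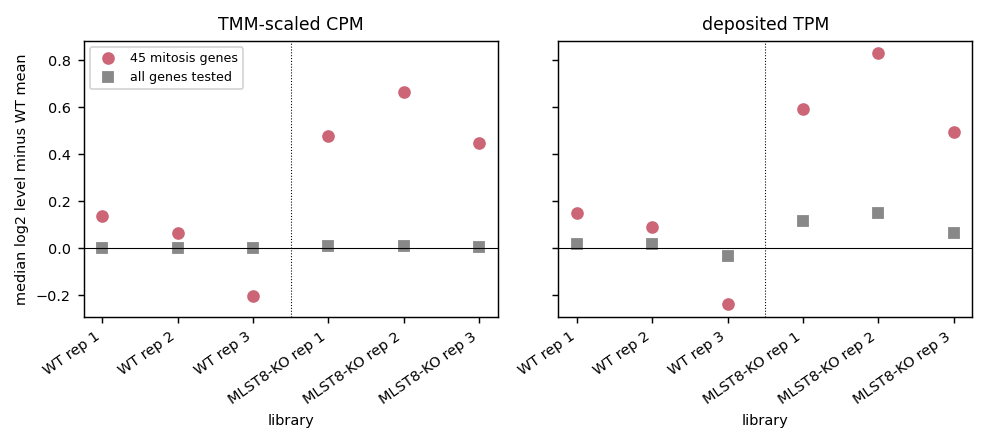
Each point is the median over genes of the log2 level minus its WT mean in 1 library, for the 45 mitosis genes (circles) and all genes tested (squares), on TMM-scaled CPM (left) and the deposited TPM (right). On CPM the circles lie at 0.14, 0.066 and -0.20 in WT and at 0.45 to 0.66 in MLST8-KO libraries with the squares near 0, and on TPM the squares of the MLST8-KO libraries lie at 0.06 to 0.15.

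Other measures moved with this order of the WT libraries. The 10 epithelial and squamous markers took 2.09%, 1.65% and 1.40% of counts in the WT libraries and 2.77%, 2.47% and 2.59% in the MLST8-KO libraries. Of these 10, 6 were higher in MLST8-KO cells (KRT5, KRT6A, KRT14, KRT17, TP63 and SOX2), 2 were lower (KRT8 and KRT18), and EPCAM and CDH1 did not pass the test. The 6 that were higher had their largest estimated count of the WT libraries in replicate 1 and their smallest in replicate 3, with SOX2 at 616, 407 and 186 in WT and 1269, 1058 and 1480 in MLST8-KO libraries. KRT8 and KRT18, keratins of simple epithelia, ran the other way, and KRT18 was at 3197, 3840 and 5014 estimated counts in WT and 2377, 2360 and 2558 in MLST8-KO libraries (log2 difference -0.86, adjusted p = 0.00542). NKX2-1, a lung lineage factor used as an adenocarcinoma marker, was at 59, 40 and 24 estimated counts in WT and 166, 163 and 138 in MLST8-KO libraries (log2 difference 1.81, adjusted p = 0.00281). The part of these genes in the differences of the mitosis genes was not tested. Without WT replicate 3, 30 of the 45 genes were higher and their median log2 fold change was 0.40 (12.5% of all genes higher, 11.9% lower), and without WT replicate 1 these values were 38 and 0.57 (20.5% and 20.2%). MLST8-KO replicate 1, the library with liver transcripts, was not the extreme library of its group for most of these genes (highest in 3 and lowest in 15), and without it 26 genes were higher with a median of 0.53, where 7.49% of all genes were called higher and 6.5% lower. Leaving out WT replicate 2 gave 27 genes and a median of 0.55 (7.41% of all genes higher, 7.97% lower). When MLST8-KO replicate 2, the highest library of its group, was left out, 21 genes were higher with a median of 0.42.

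Genes that work beside the 45 were counted in the same way, with no test between lists. Over all genes tested, 16.3% were called higher and 15.7% lower. By edgeR at an unadjusted p under 0.05, 2866 of all 12951 genes were lower. Among 31 other kinetochore and centromere genes, 16 were higher and 0 lower (median log2 fold change 0.43), led in size by ZWINT, which anchors checkpoint proteins at kinetochores, at 14.3, 10.6 and 8.8 CPM in WT and 21.3, 20.6 and 20.8 CPM in MLST8-KO libraries (0.89 ± 0.16, adjusted p = 0.0047). Among 26 other spindle, kinesin and cytokinesis genes, 21 were higher and 0 lower (median 0.56), led in size by the microtubule-binding protein PSRC1 at 4.31, 4.41 and 3.68 and 7.61, 7.54 and 9.6 CPM (0.99 ± 0.17, adjusted p = 0.00412). At an unadjusted p under 0.05, 1 kinetochore gene and 0 spindle genes were lower, and both lists had 0 lower by DESeq2 and limma. In ZWINT and PSRC1 every MLST8-KO library was above every WT library. Of 10 other checkpoint and cohesin protection genes, 2 were higher and 1 was lower (median 0.20), near the shares over all genes. CDCA2, which brings a phosphatase to chromosomes, was higher with overlapping groups (10.2, 7.57 and 5.77 CPM in WT and 13.7, 14.4 and 10.2 CPM in MLST8-KO libraries, 0.70 ± 0.21, adjusted p = 0.0299). MAD2L1BP, which helps silence the checkpoint, was lower in every MLST8-KO library (16.6, 17.1 and 18.8 against 11.7, 11.6 and 14 CPM, -0.49 ± 0.12, adjusted p = 0.0147). Leaving out a library moved some of these counts by more than 1.5 times. The kinetochore count was 10 without WT replicate 2 or MLST8-KO replicate 1, the spindle count 13 without MLST8-KO replicate 2, and the higher count of the checkpoint list ran from 0 (without MLST8-KO replicate 1 or 2) to 4 (without WT replicate 1), with 1 without WT replicate 2 or 3 and 4 by limma on TPM. MAD2L1BP was not called without MLST8-KO replicate 1 or 2, and CDCA2 without WT replicate 2 or 3 or MLST8-KO replicate 1 or 2.

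Of 17 core APC/C subunits and cofactors, 1 was higher, 3 were lower and 13 did not pass the test (median log2 fold change -0.03), against 16.3% higher and 15.7% lower over all genes tested. No difference between this list and the mitosis genes was tested. FBXO5, which encodes the APC/C inhibitor EMI1, was the gene called higher, at 24.3, 23.5 and 16 CPM in WT and 26.1, 30.1 and 30.6 CPM in MLST8-KO libraries (0.44 ± 0.15, adjusted p = 0.047). This call was kept in 1 of the 6 reduced fits, that without WT replicate 1. The small subunit ANAPC13 was lower, at 37.1, 39.5 and 44.4 CPM in WT and 27.5, 28.8 and 29.3 CPM in MLST8-KO libraries (-0.50 ± 0.09, adjusted p = 0.0057), a call kept in all 6. By limma on log2(TPM + 1), 4 genes of this list were higher and 1 was lower (21.5% and 8.76% of all genes). The number lower was 1 without WT replicate 2, MLST8-KO replicate 1 or MLST8-KO replicate 3 (7.97%, 6.5% and 11.4% of all genes lower). Of 14 other condensin and cohesin genes, 9 were higher and 1 was lower (median 0.36). NCAPD2, a condensin subunit, was at 86.1, 71.2 and 65.7 CPM in WT and 106, 129.96 and 103 CPM in MLST8-KO libraries (0.60 ± 0.12, adjusted p = 0.00678), and ESCO1, which acetylates cohesin, fell by 0.60 on the log2 scale (standard error 0.15, adjusted p = 0.0135). When MLST8-KO replicate 1 or 2 was left out, 3 or 4 genes of these were higher, respectively (7.49% and 8.69% of all genes). ESCO1 was not called without MLST8-KO replicate 1 or 3.

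Regulators and neighbours of the mitotic program were also examined, beside 16.3% of all genes tested called higher and 15.7% lower. Of 12 other CDK1 regulators, 5 were higher and 0 lower (median 0.24). PKMYT1, the kinase that holds CDK1 inactive before mitosis, was at 11.5, 12.3 and 10.4 CPM in WT and 19.5, 23 and 19.8 CPM in MLST8-KO libraries (0.87 ± 0.12, adjusted p = 0.00281). Of 12 MuvB, DREAM and B-MYB genes, 5 were higher and 0 lower (median 0.32), and MYBL2, which encodes B-MYB, was at 90.1, 65.6 and 46 CPM in WT and 115, 139 and 132 CPM in MLST8-KO libraries (0.93 ± 0.19, adjusted p = 0.00745). WT replicate 1 was its highest and replicate 3 its lowest WT library, and the groups did not overlap. The CDK1 list had 0 genes lower at an unadjusted p under 0.05 and the MuvB list 1, and both had 0 by DESeq2 and limma. DNA replication genes, which act earlier in the cycle, had the largest median among the lists of other genes (0.72), with 19 of 24 higher and 0 lower (edgeR, also 0 at an unadjusted p under 0.05 and by DESeq2 and limma). MCM5, a subunit of the replicative helicase, was at 25.9, 17.4 and 11.6 CPM in WT and 49.8, 52.6 and 46.6 CPM in MLST8-KO libraries (1.44 ± 0.21, adjusted p = 0.00317), again with WT replicate 1 highest and replicate 3 lowest and without overlap. Of 14 tested G1 cyclins and CDK inhibitors, 6 were higher and 1 was lower (median 0.27). The inhibitor CDKN2C was higher, at 7.1, 6.61 and 6.13 against 13.5, 10.6 and 13.8 CPM (0.94 ± 0.15, adjusted p = 0.00362), and CDKN1A, which encodes p21, was lower in every MLST8-KO library, at 163, 163 and 173 against 120.4, 123 and 131 CPM (-0.42 ± 0.08, adjusted p = 0.00482). Each of the 5 genes given with values here kept its call in all 6 reduced fits. The counts higher were smaller by more than 1.5 times for CDK1 regulators without WT replicate 2 (3), for MuvB genes without WT replicate 2 (1), MLST8-KO replicate 1 (2) or MLST8-KO replicate 2 (1), and for G1 genes without WT replicate 2 (2), MLST8-KO replicate 1 (3) or MLST8-KO replicate 2 (2). The share of all genes called higher was also smaller in these fits, at 7.41%, 7.49% and 8.69% in the same order of libraries.

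**Figure D5:**
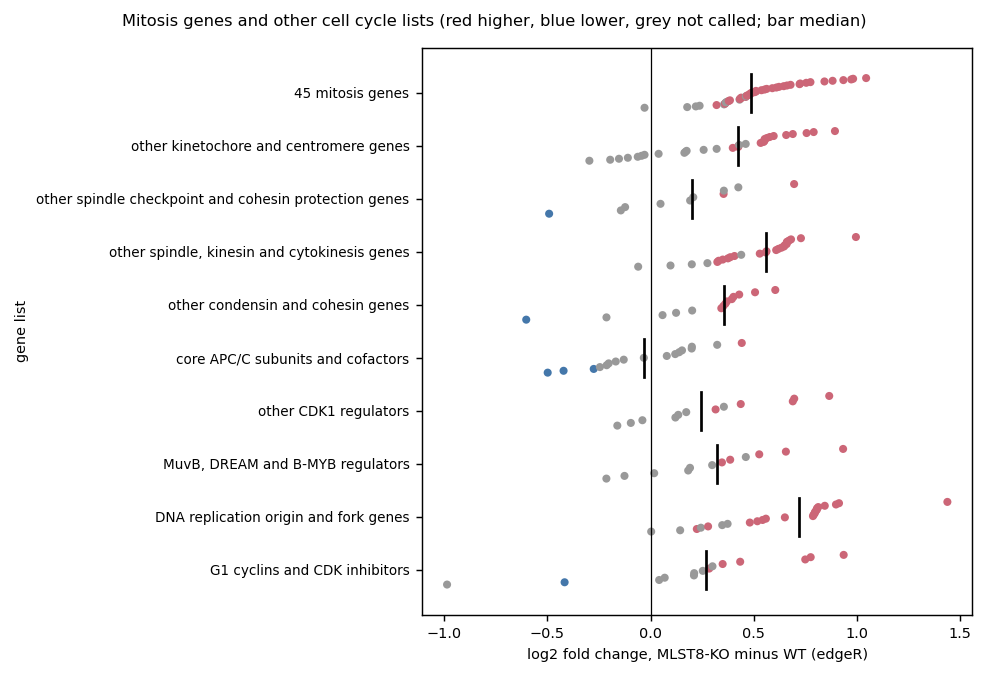
Each point is the log2 fold change of a gene (MLST8-KO minus WT, edgeR), red where called higher, blue where called lower and grey where not called, with a bar at the median of each list. The 45 mitosis genes (median 0.49) and the other spindle genes (0.56) lie almost wholly to the right of zero, the DNA replication genes farther right (0.72), and the core APC/C genes on both sides (-0.03).

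Some of these counts may hold reads of other genes. Exons of 17 of the 45 genes overlap exons of another annotated gene (GENCODE 29), 15 of them on the opposite strand, and whether the counting used strand is not given in the sources used here. CDC25C overlaps FAM53C, which is on the opposite strand and fell by 0.71 on the log2 scale (adjusted p = 0.00281), and SMC4 overlaps TRIM59, which was higher by 0.66 (adjusted p = 0.00637). BUB1B shares its strand with the readthrough gene BUB1B-PAK6, listed at 39, 67 and 48 estimated counts in WT and 23, 114 and 0 in MLST8-KO libraries. Their counts together were 300, 285 and 197 in WT and 447, 669 and 359 in MLST8-KO libraries, which did not overlap. CENPA, which did not pass the test, shares its strand with SLC35F6, and their counts together were 1327, 1364 and 1457 in WT and 1354, 1469 and 1428 in MLST8-KO libraries, which overlapped. SLC35F6 alone was at 1100, 1152 and 1304 in WT and 1098, 1183 and 1139 in MLST8-KO libraries. It made up most of each sum, so the sums say little about CENPA, whose own groups did not overlap. For 7 of the 45 genes (CCNA2, CDC25C, FOXM1, SPC25, ECT2, SMC4 and NCAPG) the deposited counts were not all whole. KIF4A has a near-identical intronless copy, KIF4B, on another chromosome, and reads could be split between them.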

How the data were processed

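Poly(A) RNA of 3 WT and 3 MLST8-KO samples of HCC2814 cells, a human cell line, was sequenced. After filtering reads for quality and adapters, the authors used HISAT on the GRCh38.p12 genome and BowTie2 on reference genes. The program that counted the reads, and whether it used strand, is not given in the sources used here. The authors deposited estimated counts per gene, not normalized, with FPKM and TPM values scaled by length and depth, and the FPKM values and group means were not used. A further deposited table, which was not used, holds the authors' own comparisons (fold changes with their p and q). The counts had been planned for as whole numbers. Because 12.4% of the values were not whole, they were rounded, and 25 symbols turned into dates were restored through Entrez identifiers.

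Samples were grouped by their labels. Tests used edgeR 4.0.16 in R 4.3.3 (filterByExpr by group, TMM, glmQLFit and glmQLFTest) without a replicate block, with Benjamini-Hochberg adjustment over 12951 genes at a threshold of 0.05. A call is a gene past that threshold. The standard error of a difference is its size over the square root of F. Simulated counts for MLST8-KO against WT, with 200 of 12951 genes changed by a log2 fold change of 1, gave 87% of the changed genes and 4.92% false calls. In the data 2116 genes were called higher and 2030 lower, and the median of the mitosis genes was 0.49. The 87% therefore does not describe recovery of differences of that size. The alternatives comprised limma 3.58.1 on log2(TPM + 1) and log2(TPM + 0.1), DESeq2 1.42.0, its size factors in edgeR, upper quartile scaling, a replicate block, 2 other filters (none, or a minimum of 10 counts per library) and reduced fits that each left out 1 library. The limit that a count of 0 allows is 3 counts (0.209 CPM in the shallowest library), for counting error only.

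The mitosis genes, the role and companion lists and the letters searched in promoters were chosen with earlier results of these data known. Genes named with all values are CDK1, CCNB1, FOXM1, MKI67, the members of each role list with the largest and the smallest absolute log2 fold change and every member that was not called. In each companion list they are the called gene with the largest difference in each direction. FAM53C, TRIM59, BUB1B-PAK6, SLC35F6, KIF4B and the single marker genes were named after their values were seen. Promoters are RefSeq's (GRCh38.p14), and gene positions are those of GENCODE 29 on GRCh38. Figures were drawn with matplotlib 3.10.9.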

Additional observations from a re-analysis of the deposited data

How the results depend on the processing

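The mitosis genes were higher in MLST8-KO cells by the median, and 0 were lower, under each of the 14 alternatives, with a median log2 fold change of 0.48 to 0.60 in the 8 that kept all libraries and 0.40 to 0.57 without a library. The number higher ran from 21 to 38 when a library was left out, with 21 without MLST8-KO replicate 2 against 36 in the main analysis. AURKA, TTK, KIF18A and CENPA were also called under upper quartile scaling and by limma, and BIRC5 by limma. PTTG1 (-0.029 in the main analysis) turned to 0.025 under upper quartile scaling, to 0.019 without WT replicate 2, to 0.025 without MLST8-KO replicate 1 and to 0.065 by limma with either pseudocount, and ran from -0.073 to 0.025 over the fits that left out a library. The last 2 shifted the median of all genes by 0.09 and 0.10, and gave 1134 and 1132 genes lower against 2030 in the main analysis. Without a library, 971 to 2692 genes were called higher and 850 to 2651 lower, with both lowest in the fits without WT replicate 2 (971 and 1044) or MLST8-KO replicate 1 (979 and 850). MLST8 stayed lower in every alternative, at -1.19 to -0.86. The cause of these changes was not tested. With the replicate number as a block, 37 mitosis genes were higher (KIF18A was added), as were 2261 genes in all with 2157 lower. The labels do not pair same-numbered samples, and the correlation of their deviations from the group means was 0.105, 0.0565 and 0.14, so the block is given only here. With 3 libraries per group, the 9 genes not called are not shown to be equal.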

Other observations

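Tested genes outside all of the gene lists were also split by promoter letters, a comparison chosen after seeing the data. Of 887 such genes with CCAAT and TTTGAA or TTTAAA in the same window, 188 were higher in MLST8-KO cells (21.2%) and 103 lower (median log2 difference 0.072). Of 9502 with a window but not both sets of letters, 1459 were higher (15.4%) and 1546 lower (median -0.0089). The difference was not tested, and genes are not independent replicates.

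Taken over the 7 lists of other mitosis genes, 59 of 122 genes were higher and 5 lower (median 0.35). Over all genes tested, 16.3% were called higher and 15.7% lower. WT replicate 3 was the lowest WT library in 78 of these 122, in 21 of the 24 DNA replication genes and in 6 of the 17 core APC/C genes. That held for 39.2% of all genes tested. MLST8-KO replicate 2 was the highest MLST8-KO library in 73 of the 122, in 15 of the 24 replication genes and in 4 of the 17 core APC/C genes. The share over all genes tested was 36.5%.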
